A study of Mus musculus with 23 samples.

Results

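H3K27ac was compared between the Ebf2-EGFP+ cells of the embryonic mouse cortex at E11.5 and at E13.5. H3K27ac is acetylation of lysine 27 of histone H3. The members are the peaks of both lists, 37055 at E11.5 and 102881 at E13.5, together 139936 of the 230624 peaks in the 8 lists of the series. All of them were taken. A peak of one list that overlapped a peak of the other by at least 1 bp was counted as shared, an E11.5 peak with no such partner as lost, and an E13.5 peak with none as gained. The transcription start sites (TSS) of 21938 protein-coding genes were sorted in the same way by a peak within 5 kb, into kept, lost, gained and neither.

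Cells came from the cerebral cortex of Tg(Ebf2-EGFP)FB58Gsat embryos, in which EGFP follows the regulatory sequence of Ebf2, and were sorted by fluorescence. Each stage has 2 H3K27ac libraries and 2 input libraries, and 1 peak list. Most of the sorted cells of E11.5 belong to the preplate, whose neurons are those of the subplate and Cajal-Retzius neurons. The E13.5 sort leans more to Cajal-Retzius neurons because the subplate loses the reporter, so that stage and cell composition cannot be told apart. No list separates the 2 libraries, none gives a depth, and the score of every peak is 0, so a difference has no replicate check and no test was possible. Wilson 95% intervals are given for shares and cover counting error only.

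H3K27ac lies on the nucleosomes beside active promoters and active enhancers and is written mainly by Ep300 and Crebbp. It takes the place that trimethylation of the same residue, H3K27me3, holds at genes silenced by Polycomb. Cajal-Retzius neurons are early neurons of the marginal zone that secrete Reelin, and subplate neurons lie below the cortical plate and send early axons.

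The E13.5 list was longer by far and its peaks were narrower, with a median width of 183 bp against 212 bp at E11.5. The E11.5 peaks covered 0.372% of the genome and the E13.5 peaks 0.853%. The libraries' depths are unknown, and their part in these lengths was not tested. Among the genes that mark the sorted cells, Reln, which encodes Reelin, had 542 bp under peaks within 5 kb of its TSS at E11.5, 126 bp at E13.5 and 1625 bp at E15.5. Trp73, a p53 relative of Cajal-Retzius neurons, had 286, 782 and 665 bp at the same stages, and Ebf2 itself had 151 bp, 147 bp and none. In all, 5 of 6 Cajal-Retzius markers had a peak at E11.5 and 6 of 6 at E13.5. Of all 21938 protein-coding genes 10957 had a peak at E11.5 and 13368 at E13.5. Of the 5 pan-neuronal markers, 3 had one at E11.5 and 2 at E13.5, and Dcx, the microtubule-binding doublecortin, had none at any stage.

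Markers of other cells were not absent. The 4 endothelial markers had 167 bp in sum at E11.5 and 628 bp at E13.5, the 4 blood markers 0 and 536 bp, the 4 microglial markers 154 and 835 bp, and the 4 mesenchymal markers 8 and 252 bp. The number with a peak went from 1 to 2, from 0 to 1, from 1 to 2 and from 1 to 2. Each of these lists thus had more at E13.5, as all protein-coding genes did, with 10957 marked at E11.5 and 13368 at E13.5. Among those at 0 in both lists were Pecam1, Hbb-bt, Alas2, Ptprc, Cx3cr1, Col3a1 and Dcn. Of the 5 progenitor markers 4 had a peak at E11.5 and all 5 at E13.5, with 1841 and 2329 bp in sum. The part of other cells in the E13.5 list was not tested.

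Before the counts, 5 promoters are shown as examples, and other genes of the same classes differ from them. They are the 250 bases before the TSS in GRCm38, read 5′ to 3′ on the strand of the gene, with each CG in capitals. Marcks (chr10:37138921-37139170, minus strand) and Eif5 (chr12:111537766-111538015, plus strand) are promoters of lost genes, Arid1b (chr17:4994082-4994331, plus strand) of a kept gene, and Cpne9 (chr6:113282057-113282306, plus strand) and Vmn1r48 (chr6:90036842-90037091, minus strand) of gained genes.
Marcks: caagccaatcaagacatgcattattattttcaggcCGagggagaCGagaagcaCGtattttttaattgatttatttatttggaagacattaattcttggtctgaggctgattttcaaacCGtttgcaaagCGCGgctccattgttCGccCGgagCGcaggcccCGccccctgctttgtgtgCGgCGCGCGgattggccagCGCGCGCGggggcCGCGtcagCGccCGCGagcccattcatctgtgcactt
Eif5: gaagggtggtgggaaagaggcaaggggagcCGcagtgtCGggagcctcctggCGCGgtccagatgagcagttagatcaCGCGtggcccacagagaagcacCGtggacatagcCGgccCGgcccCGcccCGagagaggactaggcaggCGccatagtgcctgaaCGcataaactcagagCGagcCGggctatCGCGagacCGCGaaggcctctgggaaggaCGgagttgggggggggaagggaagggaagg
Arid1b: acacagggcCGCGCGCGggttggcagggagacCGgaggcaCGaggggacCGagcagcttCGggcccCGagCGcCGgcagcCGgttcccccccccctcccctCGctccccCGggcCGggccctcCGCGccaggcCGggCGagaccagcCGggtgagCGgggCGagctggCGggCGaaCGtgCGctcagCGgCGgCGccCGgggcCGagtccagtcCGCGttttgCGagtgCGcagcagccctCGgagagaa
Cpne9: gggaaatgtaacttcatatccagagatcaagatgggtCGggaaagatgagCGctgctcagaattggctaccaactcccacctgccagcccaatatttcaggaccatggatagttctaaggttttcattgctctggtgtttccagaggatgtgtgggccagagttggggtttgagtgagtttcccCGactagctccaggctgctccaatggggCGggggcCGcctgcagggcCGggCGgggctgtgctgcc
Vmn1r48: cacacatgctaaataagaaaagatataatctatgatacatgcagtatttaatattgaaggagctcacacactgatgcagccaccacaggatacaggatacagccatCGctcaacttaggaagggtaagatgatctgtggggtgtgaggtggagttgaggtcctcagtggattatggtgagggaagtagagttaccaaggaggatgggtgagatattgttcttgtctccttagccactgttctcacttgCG
The CG dinucleotide occurs 23 times in the Marcks stretch, 20 times in Eif5 and 36 times in Arid1b, against 7 times in Cpne9 and 2 times in Vmn1r48. Over all genes the median promoter had 6 CG per 100 bp where H3K27ac was kept, 5.2 where it was lost, 2.8 where it was gained and 0.8 where it was found at neither stage. Single genes departed from these medians, with 1.2 per 100 bp at the lost Nr2f1 and 16.4 at the gained Hoxa4.

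Of the 37055 E11.5 peaks, 13591 overlapped an E13.5 peak and 23464 did not, which makes 36.7% shared (95% interval 36.2 to 37.2). Of 102877 E13.5 peaks on the nuclear chromosomes, 13990 overlapped an E11.5 peak, or 13.6% (13.4 to 13.8), and 88887 were gained. Shared peaks were wider than the rest, with medians of 265 bp against 194 bp for lost peaks and 259 bp against 176 bp for gained ones. Many lost peaks had a peak of the other list close by, since 26.1% lay within 1 kb of one, while 9.77% of gained peaks did.

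The shared share depended on peak width. At E11.5 it went from 20.4% of peaks under 150 bp to 52.5% at 300 to 499 bp and 87.3% at 1000 bp or more. At E13.5 the same bins held 6.21%, 27.9% and 63.8%. The 2 lists thus agreed best where peaks were widest, and the bin under 150 bp held 30877 of the E13.5 peaks but 5194 of the E11.5 peaks.

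**Figure D1:**
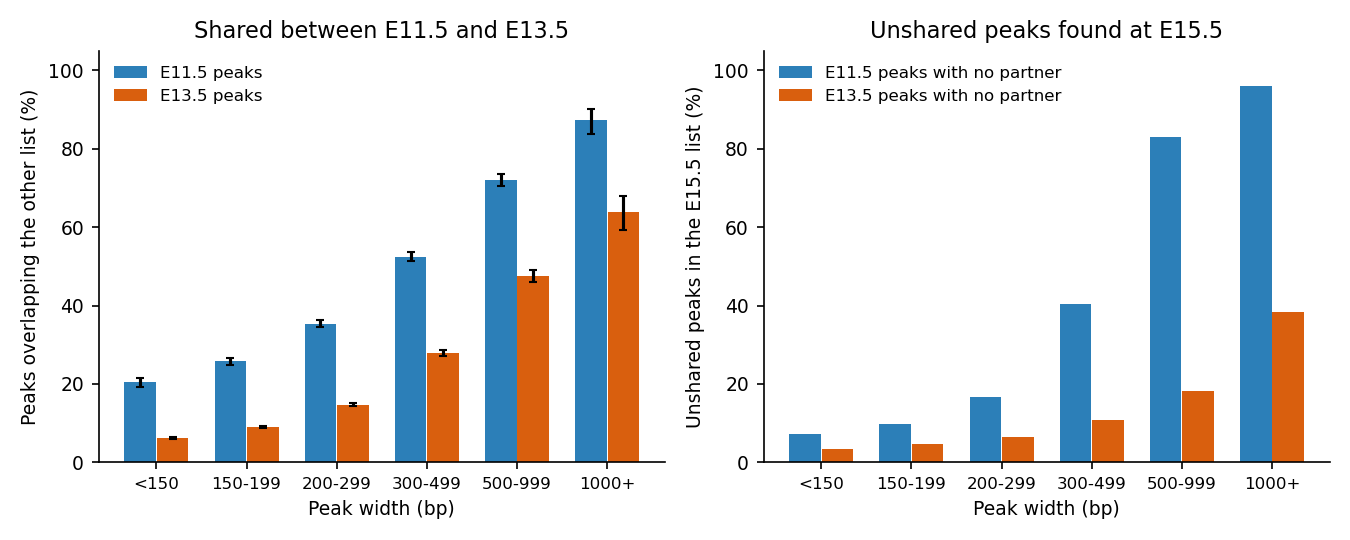
Left, share of E11.5 (blue) and E13.5 (orange) H3K27ac peaks that overlap a peak of the other stage, in percent, by peak width in bp, with Wilson 95% intervals as error bars. Right, share of the peaks with no partner that overlap the E15.5 H3K27ac list. Both shares are higher in wider bins, and among unshared peaks of 500 to 999 bp 82.9% of those from E11.5 and 18.1% of those from E13.5 were in the E15.5 list.

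With peaks of 300 bp or wider, 9566 at E11.5 and 16767 at E13.5, the lists were closer in length. Of the wide E11.5 peaks 5737 overlapped an E13.5 peak of any width, or 60.0% (59.0 to 61.0), and 3829 were lost. Of the wide E13.5 peaks 5585 overlapped an E11.5 peak of any width, or 33.3% (32.6 to 34.0), and 11182 were gained. Gained peaks were the larger class with all peaks and with wide ones, but the E13.5 list is also the longer one in both cases. With the 37055 widest E13.5 peaks, as many as E11.5 has, 28177 peaks were lost and 28314 gained, and with the 10000 widest of each list 7759 and 7788. At equal length the excess of gained peaks was thus absent, as it must nearly be when lists of equal length are set against each other.

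Lost and gained peaks differed in place. Among wide peaks, 55.5% of the lost ones lay within 5 kb of a protein-coding TSS, against 20.6% of the gained ones and 66.1% of the E11.5 shared ones. Of the wide gained peaks 40.5% lay farther off inside a protein-coding gene and 38.9% outside any. The lost ones had 6.23 CG per 100 bp and 62.7% GC, and the gained ones 3.72 and 59.4%. Bases that the reference marks as repeats made up 8.44% of the wide lost peaks on average and 34.0% of the wide gained ones, where the whole genome has 35.3%. Shared wide peaks had 14.6% at E11.5 and 30.3% at E13.5, so that both classes of wide E13.5 peaks were richer in repeats than those of E11.5. Over peaks of any width the lost had 14.0% and the gained 24.5%, but the shared had 22.2% at E11.5 and 20.9% at E13.5.

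The E15.5 list, which holds 25793 peaks of the same sorted population, did not enter the sorting and gives a readout of both classes at a later stage. It overlapped 18.0% of the lost peaks (17.5 to 18.5), 43.8% of the shared E11.5 peaks (43.0 to 44.6) and 5.71% of the gained peaks (5.56 to 5.87). Among wide peaks it overlapped 50.2% of the lost (48.6 to 51.8), 69.4% of the shared and 12.6% of the gained. The share found at E15.5 was thus larger for lost than for gained peaks, while in number 4228 lost and 5079 gained peaks overlapped that list. The gained class is far longer than the E15.5 list, which limits the share it can reach. Lost and gained peaks also differ in width and in distance to a TSS, whose part was not tested. No depth is known for any of the 3 lists.

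H3K27me3 was read from the list of E11.5 Ebf2-EGFP- cells, the longest list of that mark with 48963 peaks. It overlapped 34.6% of the wide lost peaks, 63.8% of the wide shared E11.5 peaks and 35.4% of the wide gained peaks. In the H3K27me3 list of the E13.5 Ebf2-EGFP+ cells the same classes had 2.35%, 8.77% and 4.36%. Peaks of the 2 marks in these lists can come from different cells of a sample.

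At the TSS, 8892 genes kept H3K27ac (40.5% of 21938), 2065 lost it (9.41%), 4476 gained it (20.4%) and 6505 had it at neither stage. The balance turned when peaks of 300 bp or wider were required at both stages, with 2563 kept (11.7%), 3769 lost (17.2%) and 2478 gained (11.3%). It turned as well with the 37055 widest E13.5 peaks, as many as the E11.5 list holds, which gave 4793 lost and 2341 gained, and with the 10000 widest of each list, which gave 4660 and 1448. So whether more genes gained than lost H3K27ac depended on which peaks of each list were set against each other. Where wide peaks were required, a lost gene could still have a narrower E13.5 peak, and a gained gene a narrower E11.5 peak. The strictest sorting, a peak of 300 bp or wider at one stage and none of any width at the other, left 981 lost genes (4.47%) and 1166 gained genes (5.31%).

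**Figure D2:**
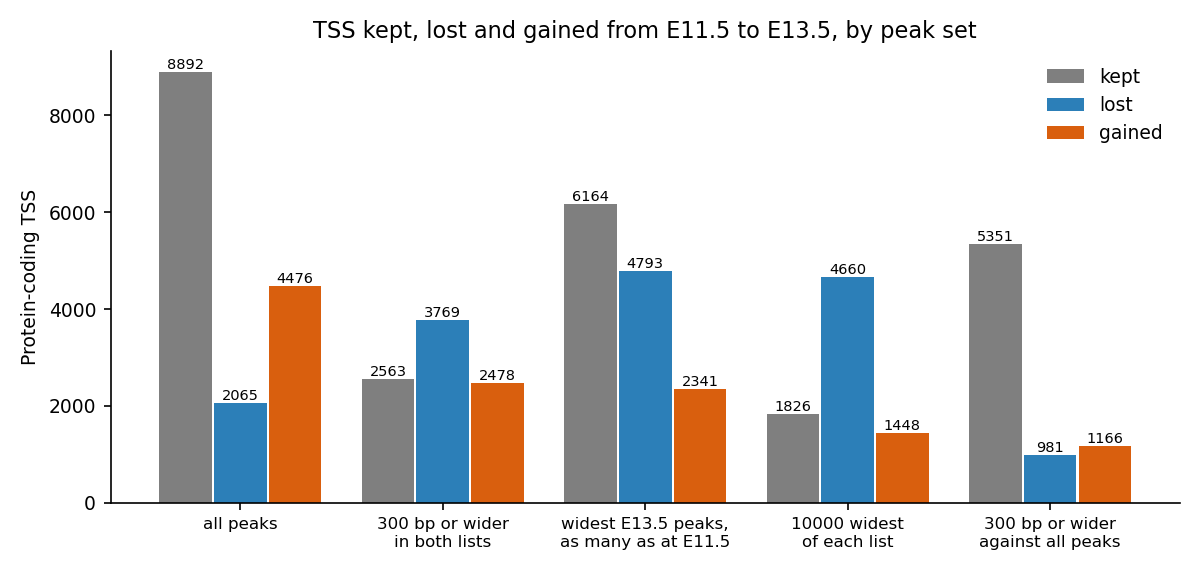
Number of protein-coding TSS (y axis) with H3K27ac within 5 kb kept (grey), lost (blue) or gained (orange) from E11.5 to E13.5, for 5 choices of peaks. Gained exceed lost with all peaks (4476 against 2065) and in the strictest sorting at the right (1166 against 981), and lost exceed gained in the 3 sets between, where a kept gene of the last set has a wide peak at E11.5 and any peak at E13.5.

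Genes that kept a peak had slightly fewer bases under peaks at E13.5. The median over the 8892 kept genes was 447 bp at E11.5 and 418 bp at E13.5, with a median difference (E13.5 minus E11.5) of -32 bp, and 54.3% had more at E11.5. Over the 2563 genes with a wide peak at both stages the medians were 682 and 660 bp. At E15.5 the same 2563 genes had a median of 930 bp. The median peak width of the whole lists went the same way, with 212, 183 and 284 bp at the 3 stages. Without peak heights the amount of the mark is unknown.

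Lost genes were mostly marked again at E15.5. Of the 981 genes lost in the strictest sorting, 882 had an E15.5 peak, or 89.9% (87.9 to 91.6), and 839 had one of 300 bp or wider. Of the 1166 gained genes 607 did, or 52.1% (49.2 to 54.9), and 387 had a wide one. Among all 21938 genes 52.3% had an E15.5 peak, so the gained genes were near that share and the lost genes above it. Genes with a wide peak at both stages had an E15.5 peak in 92.3% of cases. Leaving out peaks that were at least 50% repeat-masked gave 90.2% of 977 lost genes and 53.4% of 1111 gained genes.

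The 10 lost genes with most bases under peaks at E11.5 each had a peak again at E15.5. Marcks, which encodes an actin-binding substrate of protein kinase C and whose promoter is shown above, had 4 peaks at E11.5 that covered 2027 bp, none at E13.5 and 4 that covered 3014 bp at E15.5. Its widest E11.5 peak, chr10:37136204-37137456, lay 1464 bp downstream of the TSS and faced an E15.5 peak at chr10:37136040-37137441. The same place was therefore listed at E11.5 and at E15.5 with close to the same ends, and not at E13.5.

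Zcchc3, a zinc-finger protein of nucleic acid sensing, had 2110 bp at E11.5, none at E13.5 and 1021 bp at E15.5. Hnrnpk, an RNA-binding protein, and Rmi1, a partner of the Bloom helicase, start close together and share 1900 bp at E11.5 and 2153 bp at E15.5. Those 2 genes are 1 region of H3K27ac. Maml3, a coactivator of Notch, had 1715 bp, none and 1630 bp, and Nr2f1, the nuclear receptor COUP-TFI of cortical area patterning, had 1676 bp in 5 peaks, none, and 3298 bp in 6 peaks.

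Nsd3, a histone H3K36 methyltransferase, had 1586 bp, none and 2241 bp. Gabpb1, the partner of the ETS factor GABPA, had 1 peak of 1553 bp at E11.5 and 1 of 1579 bp at E15.5. Eif5, a translation initiation factor, had 1524 bp at E11.5 and 1544 bp at E15.5, and Rpl19, a protein of the large ribosomal subunit, 1495 and 2380 bp. Among the 99 strictly lost genes that had no E15.5 peak either, the most bases under E11.5 peaks were at Pde8a, a cAMP phosphodiesterase, with 1413 bp.

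The 10 gained genes with most bases under peaks at E13.5 were of another kind. Of these, 6 lie inside the run of peaks described below, among them Hoxa5 with 9823 bp, Hoxa4 with 9488, 5730596B20Rik with 9371, Hoxa2 with 9080 and Hoxa6 with 6356 bp, all with no peak at E11.5. The other 4 were Gm13276 (3607 bp), Gm17535 (3254 bp), Gm10715 (2473 bp) and Vmn1r48, a vomeronasal receptor (2369 bp). The single E13.5 peak of Vmn1r48, chr6:90033484-90035852, lay 989 bp beyond the TSS and 100% of it was repeat-masked. Gm17535 and Gm10715 start within a few kb of each other on chromosome 9 and had 12 and 8 peaks in the short E11.5 list of EGFP- cells, which holds 1386 peaks in all.

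Outside the HoxA run and without repeat-masked peaks, a choice made after these values were seen, the next gained genes were smaller. Ifnl2, an interferon lambda, had none at E11.5, 1883 bp at E13.5 and 518 bp at E15.5. Zfp37, a zinc-finger gene, had 1853 bp in 8 peaks, and Il11ra2, an interleukin 11 receptor chain with near-identical copies, 1823 bp in 6 peaks, and neither had an E15.5 peak. Cpne9, a copine that binds membranes with calcium, had 1762 bp in 4 peaks, 1 of them over the TSS, and none at E15.5. Tead3, the transcription factor of the Hippo pathway, had 1754 bp at E13.5 and 1036 bp at E15.5.

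Among genes with a wide peak at both stages, the 5 with the largest loss of covered bases were Arid1b, Irs2, Tubb2b, Hnrnpa0 and Ptma. Arid1b, a subunit of the BAF chromatin remodeller, had 2611 bp at E11.5, 616 bp at E13.5 and 2582 bp at E15.5, and its 2288 bp peak of E11.5 faced E13.5 peaks of 216 and 400 bp and an E15.5 peak of 2333 bp. Irs2, an insulin receptor substrate, had 2945, 1046 and 2539 bp, and Tubb2b, a neuronal tubulin, 2544, 682 and 3038 bp. Hnrnpa0 had 2092, 390 and 2387 bp, and Ptma, the histone-binding prothymosin alpha, 2781, 1110 and 3504 bp. All 5 had the fewest covered bases at E13.5.

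The 5 with the largest increase were Gm13277, Gm13278, Gm13285, Gm13275 and Gm13272, which lie side by side on chromosome 4 with Gm13276. Gm13277 had 626 bp at E11.5, 4036 bp at E13.5 and 405 bp at E15.5, and Gm13278 had 1178, 4131 and 405 bp. Their 5 kb windows overlap, so the 5 genes share peaks and are 1 region.

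**Figure D3:**
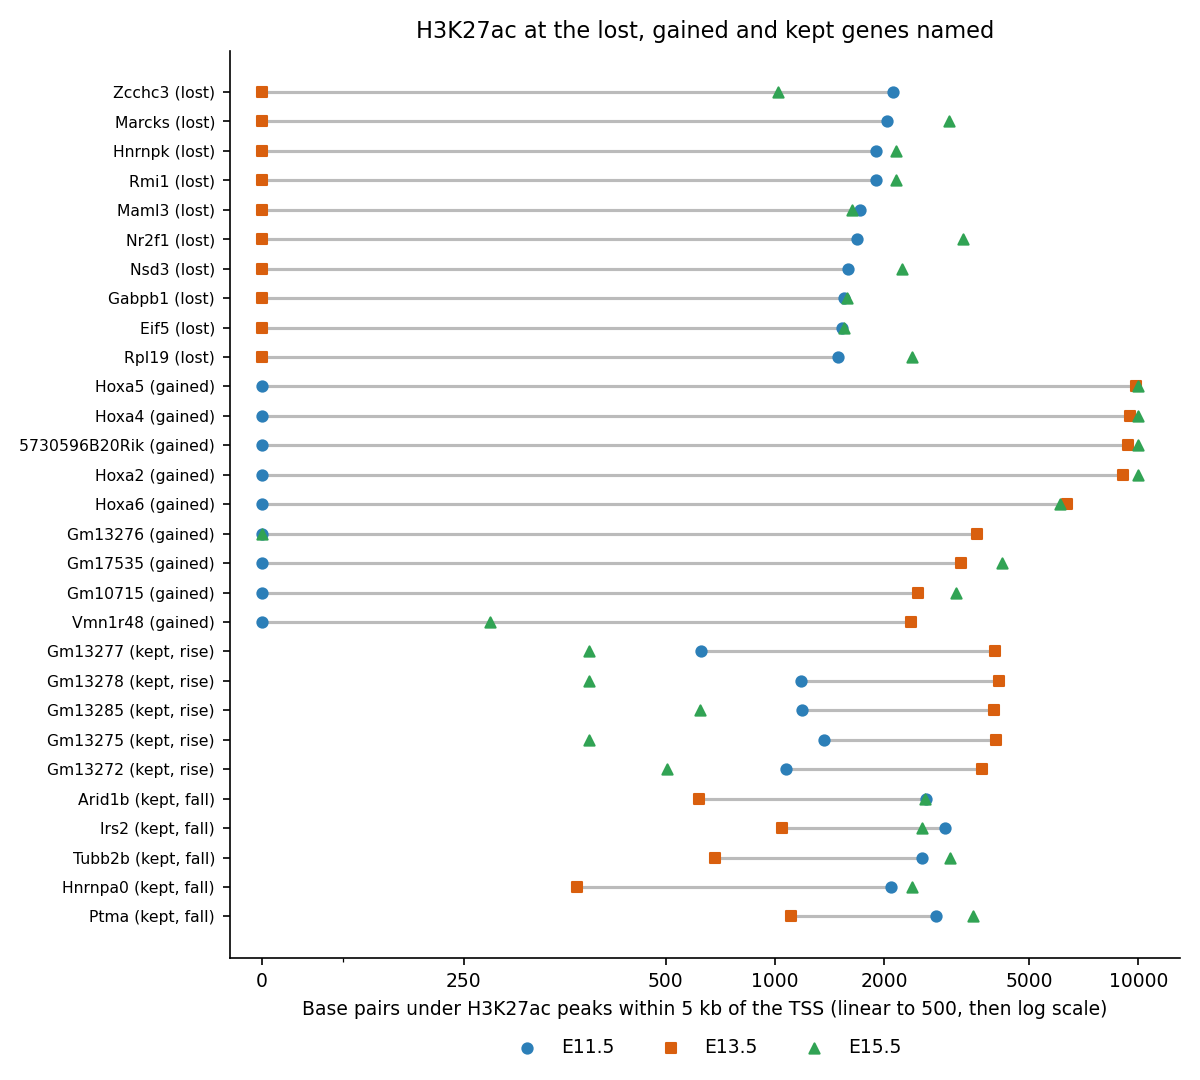
Base pairs under H3K27ac peaks within 5 kb of the TSS (x axis, linear to 500 and logarithmic beyond) at E11.5 (blue circles), E13.5 (orange squares) and E15.5 (green triangles) for 29 of the genes named by the rule, with a grey line from E11.5 to E13.5. The 10 lost genes have 0 bp at E13.5 and 1021 to 3298 bp at E15.5, and the 5 kept genes with the largest falls have their lowest value at E13.5.

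One region set the top of the gained list. Joined across gaps of up to 1 kb, the E13.5 peaks made a run of 143 kb on chromosome 6, chr6:52066450-52209751, in which 60 peaks covered 90.9% of the bases and the widest had 10680 bp. E11.5 had no peak there. In flanks of the same length on both sides E13.5 peaks covered 2.24% of the bases. At E15.5, 3 peaks covered 99.8% of the run, from 52066315 to 52209817, within 135 bp at the left end and 66 bp at the right end of where the E13.5 peaks began and stopped. The E15.5 H3K27me3 list also had 139 of its peaks there, 9.73% of that list, and they covered 33.4% of the run and none of the flanks. The H3K27me3 list of E11.5 EGFP- cells had 36 peaks in the run, over 7.43% of its bases. The lists carry no input signal, so more H3K27ac in the run and more copies of this DNA in the samples cannot be told apart here, and the gains of its genes hold with that limit.

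**Figure D4:**
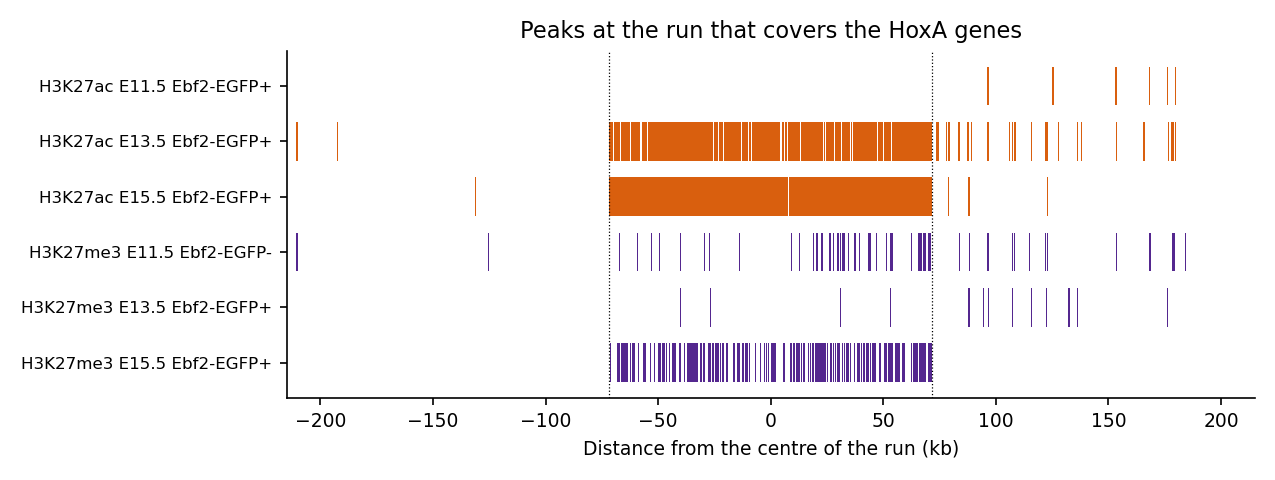
Peaks (bars, drawn at least 0.6 kb wide) of H3K27ac in orange and H3K27me3 in purple by distance in kb from the centre of the run, in 6 lists. Dotted lines mark its ends. The E13.5 and E15.5 H3K27ac lists fill the space between the lines, E11.5 has no peak in it, and the 139 E15.5 H3K27me3 peaks stop at the same lines.

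Of the 39 Hox genes, which set position along the body axis and are held silent in the forebrain by Polycomb, 15 kept H3K27ac, 23 gained it and none lost it. With peaks of 300 bp or wider 0 were kept, 3 lost and 17 gained, where all genes had 11.7%, 17.2% and 11.3%. Within 1 kb of the TSS 8 were kept, 1 lost and 19 gained, where all genes had 28.1%, 12.5% and 16.4%. All 8 protein-coding TSS within 5 kb of the run were gained. Without the genes of the run 17 of 33 Hox genes were gained and 15 kept, beside 20.4% gained among all genes. Examples outside the run are Hoxd9 with 486 bp and Hoxb13 with 265 bp, both with no peak at E11.5. Of the 23 gained Hox genes 19 had an H3K27me3 peak in E11.5 EGFP- cells and 13 in the E13.5 EGFP+ cells, beside 46.8% and 10.7% of all gained genes. The 23 include genes of the run. Neighbouring Hox genes can share windows and peaks, as Hoxa4 and Hoxa5 do, so they are not separate gains.

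Of 20 Cajal-Retzius genes 14 kept the mark (70%, against 40.5% of all genes), 1 lost it and 3 gained it. This rested on narrow peaks and the wide window. With peaks of 300 bp or wider 4 were kept, 4 lost and 4 gained, where all genes had 11.7%, 17.2% and 11.3%, and within 1 kb of the TSS 7 were kept, 4 lost and 5 gained, where all genes had 28.1%, 12.5% and 16.4%. The lost gene was Ppp2r2c, a regulatory subunit of protein phosphatase 2A, with 311 bp, none and 1007 bp at the 3 stages. Gained were Sncb, or beta-synuclein, with 624 bp at E13.5, the transcription factor Ebf1 with 426 bp and the calcium-binding Calb2 with 412 bp, each with none at E11.5 and none at E15.5. Of the 14 kept, 10 had fewer covered bases at E13.5, among them Tbr1, a T-box factor of early cortical neurons (1716 and 755 bp), while Lhx5, a LIM-homeodomain factor of Cajal-Retzius neurons, had 846 and 1130 bp.

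Of 16 subplate and deep-layer genes 9 were kept, 2 lost and 3 gained, beside 40.5%, 9.41% and 20.4% of all genes. Nr4a2, a nuclear receptor that marks the subplate, had a single peak of 846 bp at E11.5, none at E13.5 and 715 bp at E15.5. Foxp2, a forkhead factor of layer 6, had 663 bp at E11.5 only. Gained with under 200 bp at E13.5 were Ccn2 (168 bp) and Zfpm2 (167 bp), and Myt1 had 62 bp inside the window. Among the kept, Nxph4, a neurexophilin of the subplate, had 1192 and 682 bp, Fezf2, the selector of subcortical projection neurons, 772 and 154 bp, and Bcl11b, also named Ctip2, 776 and 1273 bp. With peaks of 300 bp or wider 6 of the 16 were lost and none gained, beside 17.2% and 11.3% of all genes. In the strictest sorting 2 were lost (12.5%, beside 4.47% of all genes).

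All 10 upper-layer genes had H3K27ac at E13.5, 6 of them already at E11.5, where 40.5% of all genes were kept and 20.4% gained. Among the 4 gained were Mdga1, an adhesion protein (739 bp), the netrin receptor Unc5d (584 bp) and the nuclear receptor Rorb (332 bp). At E15.5 Unc5d had 615 bp, and Mdga1 and Rorb had no peak.

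Of 22 radial glia and progenitor genes 15 were kept (68.2%, against 40.5% of all genes), 1 lost and 4 gained, and 13 of the 15 kept had fewer covered bases at E13.5. Emx2, a homeobox gene of the dorsal telencephalon, had 1786 and 356 bp and Sox9, a factor of neural stem cells, 1382 bp at E13.5 after 636 bp. The lost gene was Gli3, the Hedgehog-pathway factor, with 663, 0 and 443 bp. The gained were Ccnd1, or cyclin D1 (786 bp), Pax6 (551 bp), the receptor Notch1 (309 bp) and Hopx (126 bp), where only Hopx had an E15.5 peak. Of 14 intermediate progenitor and proneural genes 12 were kept. Of those, 9 had fewer covered bases at E13.5, such as Neurog2 with 982 and 188 bp and Insm1 with 2000 and 639 bp. Neurod6, a bHLH factor of young projection neurons, was the 1 gained, with 558 bp at E13.5 and 912 bp at E15.5. With wide peaks the 22 genes had 7 kept, 7 lost and 2 gained, and the 14 genes 6 kept, 5 lost and 2 gained. All genes had 11.7% kept, 17.2% lost and 11.3% gained in that setting, where a lost gene can keep a narrower E13.5 peak. In the strictest sorting 1 of the 22 and 0 of the 14 were lost, beside 4.47% of all genes.

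Of 22 genes of the cortical hem and other signalling centres 12 were kept and 8 gained, where 20.4% of all genes were gained, and 9 of the 12 kept had more covered bases at E13.5. With wide peaks 8 were gained and 2 lost, beside 11.3% and 17.2% of all genes. The hem is a source of Cajal-Retzius neurons and of Wnt and Bmp signals. Zic5, a zinc-finger factor of the midline, had 965 bp at E13.5, Lmx1a, a LIM-homeodomain factor of the hem, 657 bp, Fgf8 614 bp and Msx1 557 bp, all with no peak at E11.5. Of 16 ventral telencephalon and GABAergic genes 10 were kept and 4 gained, Dlx1 (687 bp), Dlx6 (669 bp), Lhx8 (453 bp) and Isl1 (326 bp). Gsx2, the ganglionic eminence homeobox gene, had 500 bp at E11.5 only. The gained share of this list, 25%, was near that of all genes, and with wide peaks 5 were lost and 5 gained. Of 28 transcription factors of non-neural lineages 13 were gained and 3 lost, and 3 of the 13 had an E15.5 peak, beside 39.9% of all gained genes. Among the gained, Pax1 of the sclerotome had a peak of 600 bp at E13.5.

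Of 19 axon cytoskeleton genes 4 were lost, against 9.41% of all genes, 1 gained and 11 kept. Of the 11, 9 had fewer covered bases at E13.5. Nefh, the heavy neurofilament, had 883 bp at E11.5, none at E13.5 and 708 bp at E15.5. Dpysl2, or CRMP2, had 508, 0 and 1691 bp, Stmn2, a tubulin-binding stathmin, 289, 0 and 1019 bp, and Dpysl3 179 bp at E11.5 only. The gained one was Nefl with 170 bp. With wide peaks 8 of the 19 were lost (42.1%, against 17.2% of all genes) and 1 gained. Genes lost in that setting can keep a narrower E13.5 peak. In the strictest sorting 2 were lost (10.5%, against 4.47% of all genes) and 0 gained.

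Of 19 synaptic vesicle genes 10 were kept, 1 lost and 5 gained, which is 26.3% beside the 20.4% of all genes, and all 19 had a peak at E15.5. With wide peaks 4 were lost and 3 gained, or 21.1% and 15.8%, beside 17.2% and 11.3% of all genes. Sv2a, a vesicle glycoprotein, had 799 bp at E13.5, and the syntaxin Stx1a had 312 bp. Syp, or synaptophysin, had 139 bp at E13.5 and 1467 bp at E15.5. The lost gene, the glutamate transporter Slc17a6, had 473, 0 and 390 bp. Of 39 glutamate and GABA receptor genes 14 were kept, 2 lost and 7 gained (17.9%), with Gria2 at 0, 339 and 2354 bp over the 3 stages.

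Of 136 voltage-gated channel genes 61 were kept, 9 lost and 39 gained (28.7%, against 20.4% of all genes). Among the lost, Kcnk3, a background potassium channel, had 411, 0 and 519 bp. Kcna5 (848 bp) and Kcna7 (857 bp) had the widest gained peaks and none at E15.5. With wide peaks 19 channels were lost and 20 gained, or 14.0% and 14.7%, beside 17.2% and 11.3% of all genes. In that setting lost exceeded gained among all genes, but not among the channels. Of 71 axon guidance genes 51 were kept (71.8%), 6 lost (8.45%) and 8 gained (11.3%), where all genes had 40.5%, 9.41% and 20.4%. Sema6c had 1037, 0 and 964 bp, the netrin receptor Dcc 731, 0 and 1105 bp, and the semaphorin receptor Nrp1 456, 0 and 1463 bp.

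**Figure D5:**
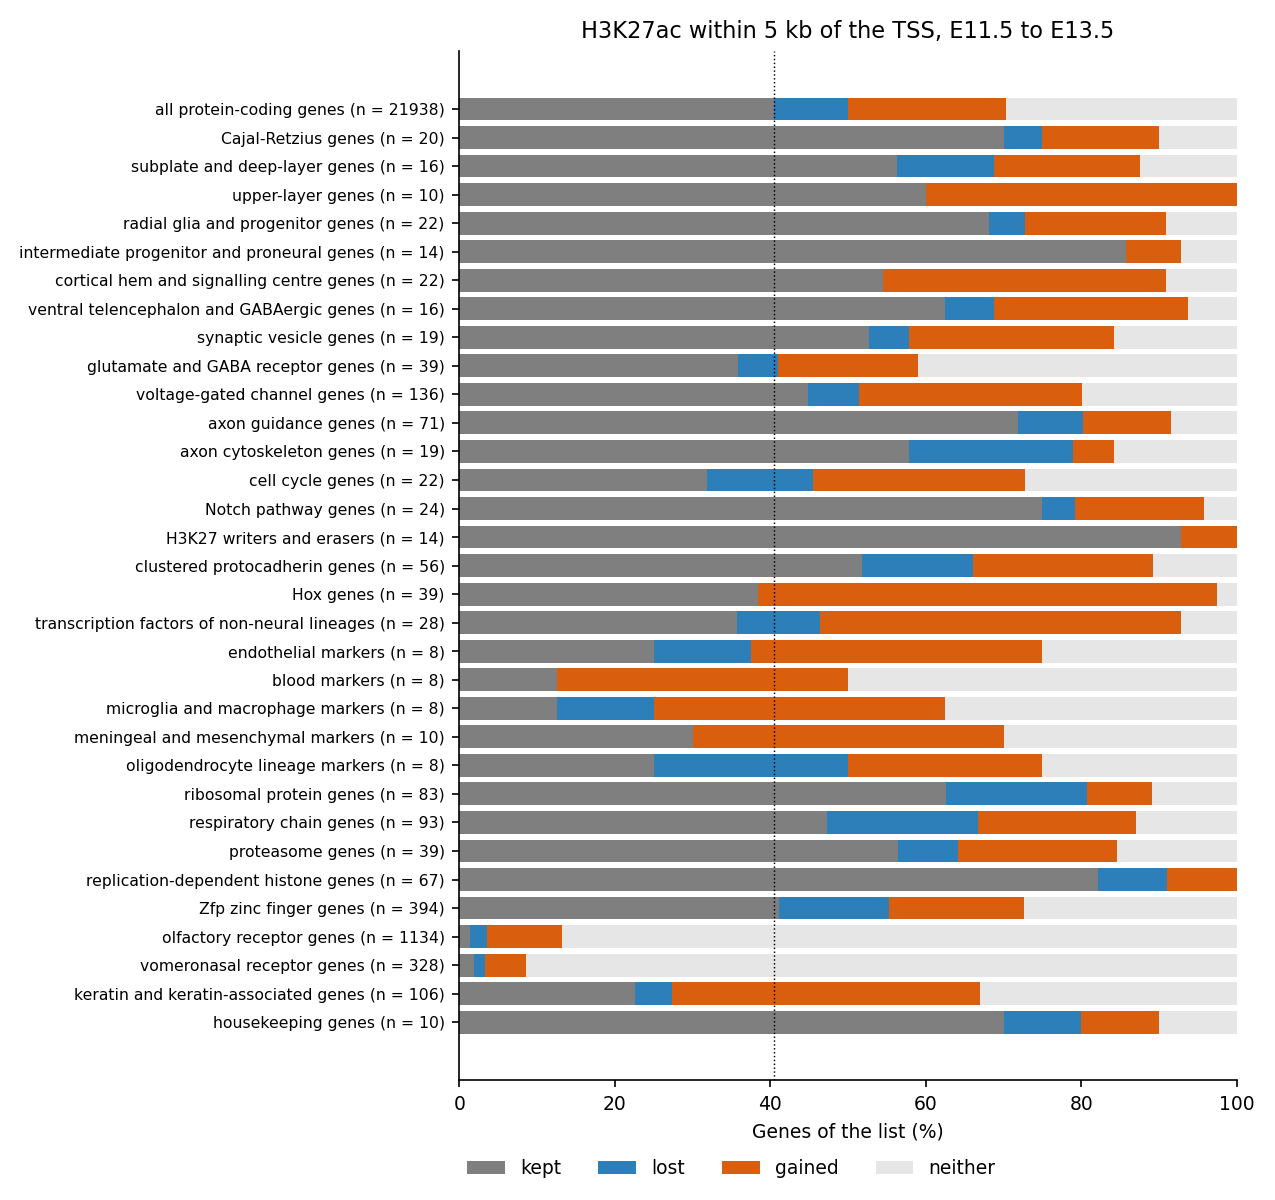
Share of the genes of each list, in percent, with H3K27ac within 5 kb of the TSS kept (grey), lost (blue), gained (orange) or at neither stage (light grey), with the number of genes beside each name. The dotted line is the kept share of all genes, 40.5%. Olfactory and vomeronasal receptor genes are mostly in neither class, and Hox genes have 23 of 39 gained.

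Housekeeping genes that lost the mark were mostly found again at E15.5, as were 73.7% of all lost genes. Most genes of these lists had an E15.5 peak, 78 of 83 ribosomal protein, 83 of 93 respiratory chain and 65 of 67 histone genes. Of 83 ribosomal protein genes 52 were kept, 15 lost and 7 gained, and all 74 of these had an E15.5 peak. The shares kept, lost and gained were 62.7%, 18.1% and 8.43%, where all genes had 40.5%, 9.41% and 20.4%. With wide peaks 32 of the 83 were lost and 6 gained, or 38.6% and 7.23%, beside 17.2% and 11.3% of all genes. Genes lost in that setting can keep a narrower E13.5 peak. With a wide E11.5 peak and none of any width at E13.5, 8 were lost (9.64%, beside 4.47% of all genes). Rps12 had 540, 0 and 667 bp and Rpl37a 537, 0 and 568 bp. Of 93 respiratory chain genes 44 were kept (47.3%), 18 lost (19.4%) and 19 gained (20.4%). Of the lost ones 17 had an E15.5 peak, such as Cox5a with 545, 0 and 899 bp. Ppia, a housekeeping cyclophilin, had 579, 0 and 1245 bp. All 6 lost histone genes of the 67 had an E15.5 peak as well. Of the H3K27 writers and erasers 13 of 14 were kept, with Ezh2, the Polycomb methyltransferase, at 1187, 232 and 1439 bp, and the gained one was Ezh1 with 602 bp.

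Receptor genes of the nose were mostly unmarked. Of 1134 olfactory receptor genes 109 were gained (9.61%, below the 20.4% of all genes), 26 lost and 15 kept, and 8 of the 109 had an E15.5 peak. Of 106 keratin and keratin-associated genes 42 were gained (39.6%), 5 lost and 24 kept, and 5 of the 42 had an E15.5 peak. Among all gained genes 39.9% had an E15.5 peak. With peaks of 300 bp or wider the gained olfactory receptor genes were 13 (1.15%) and the gained keratin genes 16 (15.1%), beside 11.3% of all genes. Of 328 vomeronasal receptor genes 17 were gained (5.18%) and 5 lost.

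Smaller lists were mixed, where 40.5% of all genes were kept, 9.41% lost and 20.4% gained. The gained shares of the Notch, protocadherin, proteasome and Zfp lists were near that of all genes, at 16.7%, 23.2%, 20.5% and 17.3%. Of 24 Notch pathway genes 18 were kept, 4 gained (Hey2, Notch1, Notch3 and Notch4) and Maml3 lost. Of 22 cell cycle genes 7 were kept, 3 lost (Ccnb2, Pcna and Aurka) and 6 gained, where Rrm2, a ribonucleotide reductase subunit, had 818 bp. Of 56 clustered protocadherin genes, whose neighbouring promoters share windows, 29 were kept, 8 lost and 13 gained. Of 39 proteasome genes 22 were kept, 3 lost and 8 gained, and of 394 Zfp zinc finger genes 162, 56 and 68. Of 8 oligodendrocyte lineage genes 2 were kept, 2 lost (Mbp and Cnp) and 2 gained (Sox10 and Mog). Among the longer lists of cells outside the neural lineage, 8 endothelial genes had 2 kept, 1 lost (Kdr) and 3 gained (Cldn5, Cdh5 and Tek), and 8 blood genes had 1 kept and 3 gained (Hba-a1, Hba-x and Klf1). Microglial and macrophage genes had 1 kept, 1 lost (Fcer1g) and 3 gained (P2ry12, C1qa and Csf1r) of 8, and meningeal and mesenchymal genes 3 kept and 4 gained (Pdgfra, Pdgfrb, Tbx18 and Col1a2) of 10. Of 10 housekeeping genes 7 were kept, 1 lost (Ppia) and 1 gained (B2m).

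Away from genes, the widest changed peaks differed in sequence. The widest lost peak more than 5 kb from a TSS, chr10:91170778-91172140, was 1363 bp wide inside Tmpo, a lamina protein gene, and 3.89% of it was repeat-masked. The fifth widest, chr13:83730557-83731553, had 997 bp and lay 227 kb from the TSS of Mef2c, a MADS-box factor of neurons. The E15.5 list overlapped 4 of the 5 widest lost peaks. The 5 widest gained ones all lay in the HoxA run, and the 5 widest outside it were 100% repeat-masked, from 2300 to 1705 bp wide, with 3 of 5 found at E15.5.

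Their central 200 bases are shown in GRCm38 on the plus strand, with the motifs of the search described next in capitals. The first 2 are the lost peaks near Tmpo (chr10:91171360-91171559) and Mef2c (chr13:83730956-83731155), and the others are gained peaks at chr3:66634909-66635108 and chr11:99825778-99825977.
Lost, Tmpo: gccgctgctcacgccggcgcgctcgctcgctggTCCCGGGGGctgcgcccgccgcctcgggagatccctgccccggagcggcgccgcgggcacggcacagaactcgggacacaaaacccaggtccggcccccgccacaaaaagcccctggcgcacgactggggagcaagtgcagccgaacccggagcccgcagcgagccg
Lost, Mef2c: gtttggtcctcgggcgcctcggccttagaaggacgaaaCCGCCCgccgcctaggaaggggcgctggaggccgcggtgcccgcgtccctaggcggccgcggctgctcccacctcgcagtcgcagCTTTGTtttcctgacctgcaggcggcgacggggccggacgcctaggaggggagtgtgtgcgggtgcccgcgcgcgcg
Gained, chromosome 3: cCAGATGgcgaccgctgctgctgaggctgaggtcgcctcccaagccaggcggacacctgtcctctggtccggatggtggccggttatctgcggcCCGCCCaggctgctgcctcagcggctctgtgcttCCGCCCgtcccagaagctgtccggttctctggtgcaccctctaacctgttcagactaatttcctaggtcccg
Gained, chromosome 11: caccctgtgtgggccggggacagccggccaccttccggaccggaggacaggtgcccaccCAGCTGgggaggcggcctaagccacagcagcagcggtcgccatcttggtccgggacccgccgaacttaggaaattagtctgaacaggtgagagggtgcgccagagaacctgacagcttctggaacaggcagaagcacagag
Both lost stretches hold 28 CG, and the gained ones 13 and 11. The whole gained peak on chromosome 3 shared a run of 30 bases on either strand with 1164 of the 11182 wide gained peaks (10.4%), 438 of the 5585 wide shared E13.5 peaks (7.84%), 15 of the 3829 wide lost peaks (0.392%) and 110 of the 5737 wide shared E11.5 peaks (1.92%). Over peaks of any width the shares were 2.37% of gained, 3.17% of shared E11.5 and 0.379% of lost peaks. The peak on chromosome 3 therefore carries sequence that recurs in both lists. How reads of such copies were placed was not tested.

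Motifs were counted on both strands in the 300 bp around the centre of each peak over 5 kb from a TSS, beside 264731 windows of the same length spaced every 10 kb. The core of EBF factors, CCCNNGGGA, was in 7.41% of lost windows (7.02 to 7.81), 16.5% of shared E11.5 windows (15.6 to 17.3) and 9.39% of gained windows (9.18 to 9.60), against 2.76% of the genome. The Sp/KLF box GGGCGG was in 9.99%, 24.7% and 11.3% of the same classes and 2.84% of the genome. The E-box CAGCTG was in 24.5%, 23.2% and 24.2% and 10.6% of the genome, and CATCTG in 27.6%, 18.4% and 25.5% against 21.8%. Lost and gained windows were alike in GC, at 54.9% and 54.9%, where shared windows had 60.7% and the genome 41.7%.

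Other motifs were less frequent than in the genome or close to it. TAATTA, the homeodomain core, was in 1.46% of lost, 0.577% of shared and 1.58% of gained windows, against 10.6% of the genome. The Sox motif ACAAAG was in 17.8%, 13.1% and 18.2% against 25.8%, and ACAATG in 12.6%, 6.58% and 10.4% against 18.4%. The AP-1 motif TGACTCA was in 5.27%, 2.72% and 4.92% against 4.74%. Over all peaks no motif of the 8 separated lost from gained windows by more than 2.20 percentage points.

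With peaks of 300 bp or wider the EBF core did separate them, at 8.86% of lost windows (7.60 to 10.3) and 16.2% of gained windows (15.49 to 17.02), while shared windows had 18.98% at E11.5 and 24.1% at E13.5. The gained share was thus over 1.5 times that of all gained peaks. Without the peaks that were at least 50% repeat-masked, a choice made after seeing the data, the wide lost and gained windows had 8.44% (7.16 to 9.92) and 8.27% (7.58 to 9.02), and the shared ones 11.49% and 9.16%. The excess of the EBF core in wide gained windows was therefore not there once repeat-masked peaks were left out. The Sp/KLF box also rose with width, to 18.0% of lost and 21.3% of gained windows, and without repeat-masked peaks the order turned, with 18.6% and 13.2%. ACAATG was in 10.8% of wide lost and 7.13% of wide gained windows, and in 11.4% and 10.2% without repeat-masked peaks. The classes differ in width and base composition, whose part was not tested.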

How the data were processed

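H3K27ac ChIP libraries of sorted Ebf2-EGFP+ cortical cells (2 at E11.5 and 2 at E13.5) were aligned by the authors to mm10 (GRCm38) with Bowtie 1.1.2, tolerating 3 mismatches, and MACS with a p cutoff of 1e-05 gave the peaks. The MACS version, the use of the inputs and how the 2 libraries were combined are not given in the sources used here. The deposited lists hold a position and a score, and the score is 0 for every peak, so no height or depth was available and precision is limited to counts of peaks. Because 1 list stands for each stage, no replicate spread, fold change or p-value could be computed.

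Starts were read as 0-based and printed 1-based. Peaks on chromosomes 1 to 19, X and Y were compared in Python 3.11 with pandas and numpy. The 4 mitochondrial peaks of E13.5 were left out. A shared peak overlaps by at least 1 bp. TSS are the 5′ ends of protein-coding genes of GENCODE M21, with a window of 5 kb, and covered bases are those under peaks inside the window. Sequence, CG counts and repeat masking (lower case in the file) came from the GRCm38 reference. The interval functions were tested on simulated data against a direct count. Intervals are Wilson 95%.

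Genes were named by rule: the 10 lost and the 10 gained genes with most covered bases, where a peak of 300 bp or wider at one stage faced none at the other, the 5 largest increases and the 5 largest falls among genes wide at both, the 5 widest lost and the 5 widest gained peaks over 5 kb from a TSS, and from each list all lost or gained members up to 6, otherwise those with the widest peaks. The members and the 32 gene lists were chosen with earlier results of these data known. The alternatives tried were peak width, equal list lengths, reciprocal overlap, a distance of 1 kb, merging, the TSS window, all transcript starts and chromosomes 1 to 19. Leaving out the run on chromosome 6 and repeat-masked peaks, also from the motif counts, was chosen after seeing the data. Some genes are not reported here.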

Additional observations from a re-analysis of the deposited data

Results flagged for a closer look

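In a list that no comparison of H3K27ac between E11.5 and E13.5 used, the H3K27me3 peaks of E15.5 Ebf2-EGFP+ cells, 139 peaks lay in the run of E13.5 H3K27ac peaks over the HoxA genes, where the H3K27me3 lists of E11.5 and E13.5 Ebf2-EGFP+ cells had 0 and 4 and that of E11.5 Ebf2-EGFP- cells had 36. This stood out because 9.73% of that list fell in 143 kb and the peaks ended at the ends of the run, where the E15.5 H3K27ac list ended too. Both marks were thus listed over the same bases in the same sorted population. The cause was not tested.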

How the results depend on the processing

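No paired analysis was possible because each stage has 1 peak list in which the libraries are not separated, and for the same reason no library could be left out. With peaks of 300 bp or wider in both lists, 2907 E11.5 peaks were shared, 6659 lost and 13850 gained, and 2563 TSS were kept, 3769 lost and 2478 gained. With wide peaks of one list against all peaks of the other, the peak counts were 5737, 3829 and 11182 and the TSS counts 5351, 981 and 1166. With the widest E13.5 peaks in the number of the E11.5 list, 8878 peaks were shared, 28177 lost and 28314 gained, and 4793 TSS were lost and 2341 gained. With the 10000 widest of each list, the peak counts were 2241, 7759 and 7788 and the TSS counts 1826, 4660 and 1448. A reciprocal overlap of 50% left 6282 shared peaks. The E15.5 overlap of wide peaks was 50.2% for lost, 69.4% and 51.7% for shared E11.5 and E13.5 peaks, and 12.6% for gained peaks. These settings change how many peaks are compared by their construction. The other 34 counts of peaks and TSS stayed within 1.5 times the reported one, among them those without the run on chromosome 6 (4471 TSS gained) and without repeat-masked peaks (2110 lost and 4267 gained). Of 196 values for gene lists and motifs, 129 moved. The balance of lost and gained TSS turned, and the excess of gained over lost peaks fell to near none at equal list length. With 1 list a stage, unknown depth and no heights, a peak missing from a list cannot be told apart from one just under the caller's cutoff.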

Other observations

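Other E13.5 runs of peaks stood out by length. The next longest after the run on chromosome 6, joined across gaps of up to 1 kb, was on chromosome 8 (chr8:123537391-123624390, 87 kb), followed by another on chromosome 6 (chr6:114499201-114520147, 20.9 kb). In the promoters of all protein-coding genes, the 250 bases before the TSS, GGGCGG occurred in 55.6% of kept, 47.0% of lost, 36.9% of gained and 15.3% of genes with H3K27ac at neither stage, against 39.0% of all. Names of predicted genes (Gm followed by a number, or ending in Rik) were 62 of the 2065 lost, 300 of the 4476 gained and 1506 of all 21938 genes.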
